A study of Mus musculus with 4 samples.

Results

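Cytosolic ribosomal protein genes were taken as all array probes whose gene name is that of a protein of the large (60S) or small (40S) ribosomal subunit, including the stalk proteins Rplp0, Rplp1 and Rplp2 and leaving out the S6 kinases. The rule found 134 probes of 80 genes among 41174 probes on the array. Of these, 130 probes, covering all 80 genes, were among the 26412 probes kept as well above background. The probes of Rps19, Rps2, Rpl35a and Rpl22l1 that were not kept each had another kept probe of the same gene.

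Kidney RNA of Th3 mice was compared with kidney RNA of control mice on 4 two-colour oligonucleotide arrays. Th3 mice carry a deletion of both genes for the beta-globin of adult red cells and serve as a model of beta-thalassemia, in which too little beta-globin causes anaemia. The labels do not say whether the deletion is on both chromosomes, describe the control mice only as control, and give no age or sex. The Th3 sample was labelled with Cy5 for arrays 1 and 2 and with Cy3 for the other 2 arrays, numbered 3 and 4. The study's design counts 4 mutants and 4 controls. The labels do not say which arrays share kidneys, so the difference between the pairs of arrays cannot be told apart from the dye orientation. The main fit has a term for the dye, so its p-values measure the spread of arrays within each pair, which may be partly technical. They leave out the difference between the pairs, which an SD over the 4 arrays includes.

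The brightest probe of Hbb-b1, the deleted beta-major globin, read 8.48% of the control level and was lower in Th3 on 4 of 4 arrays. Between 62.4% and 72.7% of the spots were well above background in a channel. All 8 kidney markers had kept probes, with a summed log2 signal of 17.99 to 18.4 in Th3 and 18.3 to 18.5 in control. Within arrays, that sum was higher in Th3 on arrays 1 and 2 and lower on arrays 3 and 4. In whole kidney, fewer cells of a type and less RNA per cell cannot be told apart.

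Ribosomal proteins join ribosomal RNA in the nucleolus to make the subunits that translate messenger RNA. Their messenger RNAs are among the most abundant in most cells, and many begin with a run of pyrimidines through which the kinase mTOR controls their translation. Mutations in several of these genes cause Diamond-Blackfan anaemia, a failure of red-cell production in the bone marrow. Red-cell precursors make globin in large amounts and depend on ribosomes to do so.

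The stalk proteins Rplp1 and Rplp2 are shown first. Among the 130 kept ribosomal protein probes, Rplp1 carried the largest difference between the pairs of arrays. The first 50 bases of each array probe, on mouse build mm8, run past the end of the coding stretch, and the capitals mark the stop triplet. The Rplp1 probe lies at chr9:61711300-61711359 on the minus strand, and the Rplp2 probe lies at chr7:141302601-141302660 on the plus strand.
Rplp1: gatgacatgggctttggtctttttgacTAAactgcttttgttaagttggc
Rplp2: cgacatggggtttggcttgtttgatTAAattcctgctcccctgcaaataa

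Ribosomal protein transcripts were mostly higher in Th3 kidney, by small amounts. The log2 ratio of Th3 over control had a median of 0.20 over the 130 probes (interquartile range 0.12 to 0.32, range -0.34 to 0.48), a fold of 1.15, against a median of 0.0033 over all kept probes. The ratio was above 0 for 115 probes and below 0 for 15, against 13456 and 12956 of all 26412 kept probes. By limma with Benjamini-Hochberg adjusted p under 0.05, 58 probes were called higher (44.6%, against a background of 9.30% of all kept probes), 3 were called lower (2.31%, against 8.93%) and 69 were not called. At an unadjusted p under 0.05, 89 were higher (68.5%, against 17.8% of all kept probes) and 4 lower (3.08%, against 16.2%). The ratio was above 0 on 4 of 4 arrays for 73 probes (56.2%, against 19.5% of all kept probes) and below 0 on 4 of 4 arrays for 5 probes (3.85%, against 16.7%). With the brightest kept probe standing for each gene, 39 genes of 80 were called higher and 2 lower, against 10.4% and 10.1% of all 17761 genes.

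The count of called members depended on how the pairs of arrays were treated. It was 58 with a dye term (44.6%, background 9.30%), 32 without it (24.6%, background 5.44%) and 14 when each pair was a random block (10.8%, background 3.52%). It was 13 when array 1 was left out (10%, background 4.27%), 37 without array 2 (28.5%, background 5.03%) and 35 with Agilent's processed signals (26.9%, background 8.62%). It was 76 with median centring (58.5%, background 8.64%) and 87 with separate channels (66.9%, background 15.5%). The median ratio stayed between 0.16 and 0.28 under these and the other settings tried.

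The per-array medians over the members were 0.34 on array 1, 0.19 on array 2, 0.16 on array 3 and 0.09 on array 4. All 4 lay above 0, and the arrays with Th3 in Cy5 had the higher medians. Within a probe, the SD of the ratio over the 4 arrays had a median of 0.16 and reached 0.65 for Rplp1. The SD of the mean ratios among the 130 probes was 0.16. A mean over 4 arrays varies less than the ratio of a single array, so these SDs are not directly comparable.

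**Figure D1:**
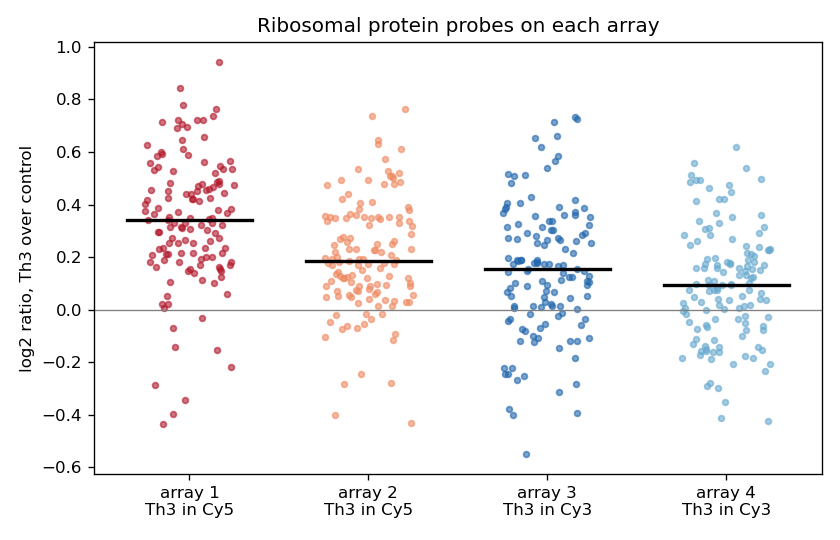
Each point is 1 of the 130 kept ribosomal protein probes; the vertical axis is the log2 ratio of Th3 over control and the black bar is the median on that array. The 4 medians, 0.34, 0.19, 0.16 and 0.09, lie above 0, and the points of every array reach below 0.

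Among the stalk proteins, which recruit translation factors to the ribosome, Rplp2 had log2 ratios of 0.72 and 0.61 with Th3 in Cy5 (arrays 1 and 2) and of 0.16 and -0.14 with Th3 in Cy3 (arrays 3 and 4). Its mean was 0.34 ± 0.40 (SD, n = 4), with a limma adjusted p of 0.020. Rplp0, which anchors the stalk, had ratios of 0.23, 0.17, 0.73 and 0.19, with the high value on array 3, and a mean of 0.33 ± 0.27 (adjusted p = 0.051, limma). Rplp1 had ratios of 0.65, 0.63, -0.55 and -0.42 in array order, so its 2 pairs of arrays lay on opposite sides of 0. Its mean was 0.08 ± 0.65 (adjusted p = 0.36, limma). The Rplp1 log2 signals were 17.64, 17.38, 16.89 and 16.95 in the Th3 channel, against 16.99, 16.75, 17.44 and 17.37 in the control channel.

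In the 40S subunit, which decodes the messenger RNA, 30 of 55 probes were called higher and 1 lower. These were 54.5% and 1.82%, against 9.30% and 8.93% of all kept probes. Rps7, mutated in some families with Diamond-Blackfan anaemia, had ratios of 0.69, 0.57, 0.35 and 0.28, all above 0, with a mean of 0.48 ± 0.19 (1.39-fold, adjusted p = 0.0043, limma). Rps15a had ratios of 0.49, 0.35, 0.54 and 0.50, and a mean of 0.47 ± 0.083 (1.38-fold, adjusted p = 0.0047, limma). The log2 signal of Rps15a was 15.24, 15.16, 15.25 and 15.26 in the Th3 channel, against 14.75, 14.81, 14.71 and 14.76 in the control channel. These normalized signals did not overlap, but Rps15a was picked for its large increase, so their separation follows in part from that choice. Rps14, whose loss is a feature of the 5q- form of myelodysplasia, had ratios of 0.74, 0.74, 0.41 and -0.04, with array 4 below 0. Its mean was 0.46 ± 0.37 (adjusted p = 0.013, limma). Rps19, the gene first linked to Diamond-Blackfan anaemia, had ratios of 0.60, 0.34, 0.39 and 0.42, with a mean of 0.44 ± 0.11. Rps4x, an X-linked 40S protein, had ratios of 0.66, 0.51, 0.36 and 0.11, with a mean of 0.41 ± 0.23. Its other kept probe had a mean of -0.10 and was not called, the widest range among genes with several kept probes.

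In the 60S subunit with its stalk, which joins amino acids, 28 of 75 probes were called higher and 2 lower. These were 37.3% and 2.67%, against 9.30% and 8.93% of all kept probes. Rpl9 had ratios of 0.59, 0.54, 0.71 and 0.08, with the low value on array 4, and a mean of 0.48 ± 0.28 (1.39-fold, adjusted p = 0.025, limma). Rpl30 had ratios of 0.56, 0.32, 0.27 and 0.41 and a mean of 0.39 ± 0.13. Rpl5, which with Rpl11 and the 5S ribosomal RNA binds the p53 regulator Mdm2, had ratios of 0.69, 0.65, 0.41 and -0.16, with array 4 below 0, and a mean of 0.40 ± 0.39 (adjusted p = 0.034, limma). Rpl11 itself had ratios of 0.57, 0.50, -0.22 and -0.21, and was not called. The decreases were Rpl27a and Rpl7l1. Rpl27a had ratios of -0.29, -0.43, -0.24 and -0.41, with a mean of -0.34 ± 0.092 (adjusted p = 0.013, limma). Rpl7l1, a paralog of Rpl7, had ratios of -0.15, -0.40, -0.38 and -0.18, with a mean of -0.28 ± 0.13 (adjusted p = 0.034, limma). The ratios of both were below 0 on every array. With each pair as a random block, Rplp2, Rpl9, Rps14, Rps4x, Rpl5 and Rpl7l1 were not called (limma adjusted p from 0.054 for Rps4x to 0.21 for Rplp2). Without array 2, the calls of Rpl27a (adjusted p = 0.061, limma) and Rpl7l1 (adjusted p = 0.18, limma) were also lost, and without array 1 those of Rplp2 (adjusted p = 0.081, limma) and Rpl5 (adjusted p = 0.076, limma) were.

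The 3 genes with the dimmest brightest probe were Rpl3l, Rpl31 and Rpl14. Rpl31 had ratios of -0.03, -0.28, 0.15 and -0.06, and Rpl14 had ratios of 0.20, -0.05, 0.0065 and 0.04. Neither was called, and each had values on both sides of 0.

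**Figure D2:**
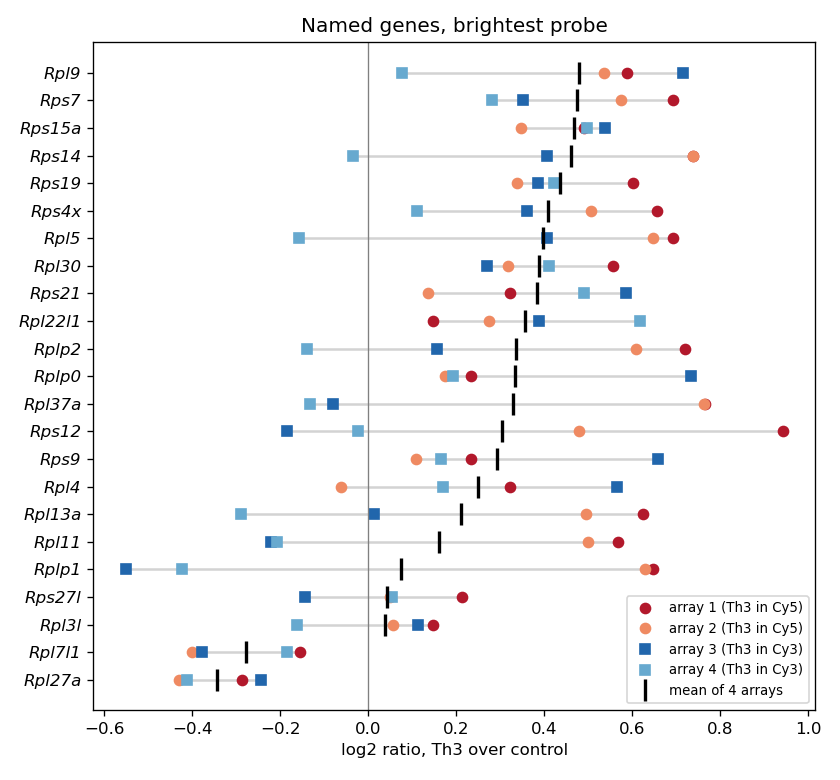
The horizontal axis is the log2 ratio of Th3 over control for the brightest kept probe of 23 ribosomal protein genes chosen by rule; circles are arrays 1 and 2, squares arrays 3 and 4, and the bar is the mean of the 4 arrays. In Rplp1 the circles lie at 0.63 and 0.65 and the squares at -0.55 and -0.42, whereas all 4 points of Rps15a lie between 0.35 and 0.54.

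Of the 20 genes on a list of Diamond-Blackfan anaemia genes that were on the array, 11 were called higher and 0 lower by limma. The share called higher was 55%, against 48.75% of all 80 member genes and 10.4% of all genes. At an unadjusted p under 0.05 by limma, 16 were higher (80%, against 76.25% of member genes) and 0 lower. The median ratio of the 20 genes was 0.26, against 0.23 for all 80 member genes. The genes called higher included Rps7, Rps15a, Rps19, Rps24, Rpl5 and Rpl26. Their ratios ranged from 0.23 for Rpl26 to 0.48 for Rps7. The other 9, which include Rpl11, Rpl35a, Rps26 and Rps29, did not pass the test.

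Paralogs are copies of a ribosomal protein gene that are often used in particular tissues, and 4 of them had kept probes under the rule. Rpl22l1, the paralog of Rpl22, had ratios of 0.15, 0.27, 0.39 and 0.62 and a mean of 0.36 ± 0.20 (adjusted p = 0.013, limma). Rps27l, a p53-responsive paralog of Rps27, had ratios of 0.21, 0.05, -0.14 and 0.05 and was not called. Rpl3l, a paralog of Rpl3 known from muscle, had ratios of 0.15, 0.06, 0.11 and -0.16 and was not called. Rpl7l1 is described above.

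Several probes of a gene did not always give the same value. Of 39 genes with 2 to 4 kept probes, all probes were called higher in 11 genes and no probe was called in 15. Some but not all probes were called higher in 10 genes, some were called lower in 3, and in 0 genes were probes called in opposite directions, though in 11 genes the probes' ratios had opposite signs. The genes with a lower call were Rpl27a, Rpl7l1 and Rpsa, the last also known as the laminin receptor. Rpsa was picked after its values were seen: its dimmer probe had a mean ratio of -0.30 ± 0.083 (adjusted p = 0.017, limma), whereas its brighter probe had 0.16 ± 0.35 and was not called.

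The first 30 bases of the probes of 4 such genes are given on mm8, because their ratios differ between probes, beside those of Rpl7, whose 3 probes were all called higher. The brighter probe comes first, and no base is capitalised.
Rps15a, brighter: gtcatcgttcggttcttaaccgtgatgatg
Rps15a, dimmer: gtgagtcagcagaaagtatagatagcaaag
Rps24, brightest: aacacagactggcaagacatggcctttatg
Rps24, middle: caggtatagttcaagctattccgtagatca
Rps24, dimmest: gtcaagagcctgaactgagttgatcaagtc
Rps25, brighter: taaggaggttccgaactataagcttattac
Rps25, dimmer: ttggaaaaataaaactttattgaatcaaat
Rpl27a, brighter: caacaggacatcactggttgggaatactgt
Rpl27a, dimmer: cttagtgtgcttaagtcctcgaagaataac
Rpl7, brightest: cccttcaagttatcttccccacgaggtggg
Rpl7, middle: caaagctggcctttgtcatcagaattcgag
Rpl7, dimmest: ctcaagaaaaagcgaaggaatttcgcagag

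The brighter Rps15a probe, at chr7:117905991-117906294, had a ratio of 0.47 and the dimmer one, at chr7:117895957-117896016, had 0.08. The Rps24 probes had 0.37, -0.10 and 0.24 in order of brightness, and the Rps25 probes had 0.34 and -0.12. The Rpl27a probes ran the other way, at -0.34 for the brighter probe and 0.12 for the dimmer. Their mean log2 signals were 11.71 and 7.29. The dimmer Rpl27a probe and the middle and dimmest Rps24 probes are not assigned to a RefSeq message. The Rpl7 probes had 0.30, 0.27 and 0.34, so their values lay close together. In 7 genes, probes share a run of 20 or more bases and are not independent, with the longest run 42 bases in Rps21 and 40 bases in Rps28. Ribosomal protein genes have many near-identical processed copies in the genome, and what these add to a probe's signal was not tested.

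**Figure D3:**
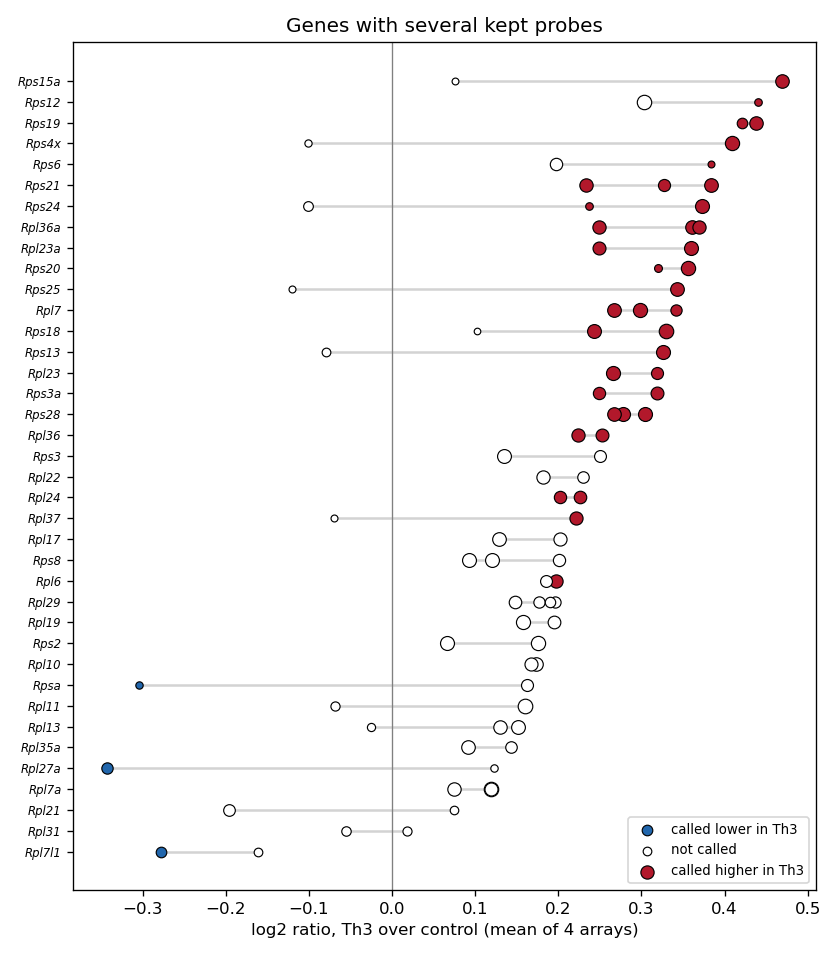
Each row is a gene with several kept probes, for the genes reported here, the horizontal axis is the mean log2 ratio of Th3 over control, larger circles are brighter probes, and the colour gives the limma call. No row holds both a red and a blue point, and the rows of Rps15a, Rps4x, Rps25 and Rpl27a span the zero line or nearly so.

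The ratios of arrays 1 and 2 were higher than those of arrays 3 and 4 for most members. Over the 130 probes, the pair of arrays 1 and 2 had a median of 0.26 and the pair of arrays 3 and 4 a median of 0.12. The difference of the pairs had a median of 0.09 (range -0.43 to 1.13) against 0.01 over all kept probes, and lay above 0 for 92 probes and below 0 for 38. Over all 26412 kept probes it lay above 0 for 13941 and below 0 for 12471. By the dye term of the limma fit, 1 member was called, in the higher direction, against 0.0530% of all kept probes (0.0492% higher and 0.00379% lower), and 35 members (26.9%) had an unadjusted p under 0.05, against 15.9% of all kept probes. The called probe was Rplp1, with a difference of 1.13 (adjusted p = 0.048, limma), and it was not called with processed signals (adjusted p = 0.12, limma), without the filter (0.061), without array 1 (0.053) or without array 3 (0.056). With the brightest probe standing for each gene, the next were Rpl37a at 0.87, Rps12 at 0.82, Rpl11 at 0.75 and Rpl13a at 0.70. The lowest of these were Rps21 at -0.31, Rpl22l1 at -0.29, Rplp0 at -0.26, Rps9 at -0.24 and Rpl4 at -0.24, while the lowest of all 130 probes was the dimmest Rpl7 probe at -0.43.

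Rpl37a, a small zinc-binding 60S protein, had ratios of 0.76, 0.76, -0.08 and -0.13. Rps12 had ratios of 0.94 and 0.48, then -0.18 and -0.02. Both genes were picked for a high pair difference, so the distance between their pairs follows from that choice. Rps21, picked for a low pair difference, had 0.32 and 0.14, then 0.59 and 0.49, so its arrays 3 and 4 were the higher ones. Over the members, arrays 1 and 2 correlated at 0.83 and arrays 3 and 4 at 0.52, while the correlation between arrays of different pairs ran from 0.03 to 0.20. Over all kept probes, the correlation between pairs was 0.41 to 0.51. These values describe 130 probes that share the arrays and, in part, sequence and brightness.

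The median difference between pairs was largest among the brightest probes. The 18 members with a mean log2 signal above 16 had a median pair difference of 0.56, where arrays 1 and 2 had a median of 0.60 and the other pair one of 0.01. The 81 other probes of that brightness had a median pair difference of 0.48, with medians of 0.14 and -0.32, so a pair difference was present in both sets, and the medians of the members were the higher ones on both pairs. The 22 members with a mean log2 signal between 12 and 14 had a median pair difference of -0.04. The scanner files mark values of bright spots that were scaled up from a low-gain scan, and 35.7% to 57.3% of member spots in a channel had such a value, against 0.904% to 2.45% of all spots. The 82 members with a low-gain value had 45 higher calls and 0 lower calls by limma (66 and 0 at an unadjusted p under 0.05). The 48 members without one had 13 higher and 3 lower (23 and 4 at an unadjusted p under 0.05). Of the 933 other probes with a low-gain value, 14.5% were called higher and 16.7% lower, against 8.92% and 8.68% of the other probes without one. At an unadjusted p under 0.05 by limma, the shares were 22.0% and 25.7% with a low-gain value, and 17.4% and 15.9% without. The part of the low-gain scan in these results was not tested. The brightness bands and the low-gain split were chosen after the values were seen.

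**Figure D4:**
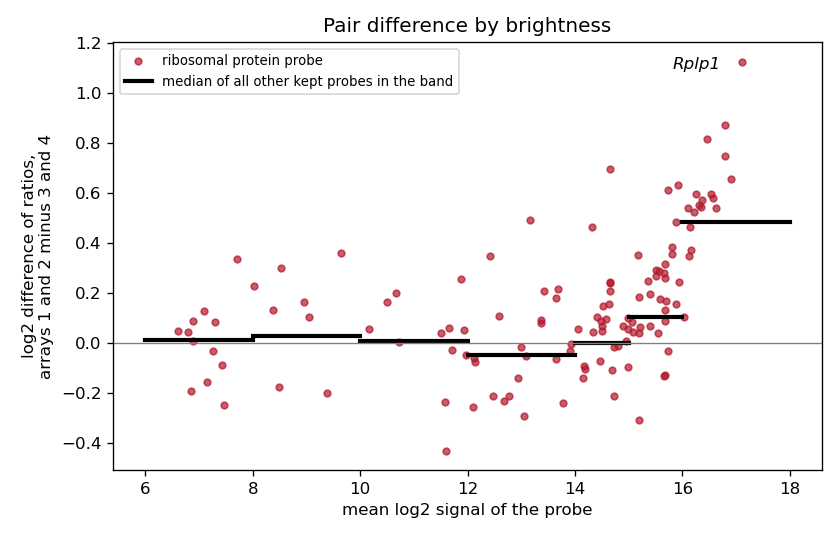
The horizontal axis is the mean log2 signal of the probe and the vertical axis is the difference of log2 ratios, arrays 1 and 2 minus arrays 3 and 4; red points are the 130 ribosomal protein probes and black bars are medians of all other kept probes in bands of brightness. Rplp1 lies at 1.13, and the bar of the brightest band, 0.48, lies beside the bright members, which have a median of 0.56.

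Genes that work with the ribosome gave mixed results, against backgrounds of 10.4% of all genes called higher and 10.1% called lower. Of 14 translation genes outside the rule, 5 were called higher (35.7%) and 0 lower by limma. At an unadjusted p under 0.05 by limma, 8 were higher (57.1%, against 19.0% of all genes) and 0 lower (against 17.8%). The called genes were led by Npm1, a nucleolar assembly factor, at 0.41 ± 0.096. Next was Fau, which encodes a 40S protein fused to a ubiquitin-like protein, at 0.37 ± 0.27. Of 19 ribosome biogenesis genes, 1 was called higher (5.26%), Myc at 0.75 ± 0.39. The 2 called lower (10.5%, near the background) were Bysl at -0.30 ± 0.095 and Rrp9 at -0.26 ± 0.040. Bysl serves 40S maturation and Rrp9 is a component of the U3 particle. Of 14 genes that control translation, 3 were called higher (21.4%) and 0 lower. They were led by Ddit4, an inhibitor of mTOR complex 1, at 0.96 ± 0.21, and Eif4ebp2, which binds the cap-binding factor eIF4E, at 0.30 ± 0.092. Of 74 mitochondrial ribosomal proteins, which build a separate ribosome, 1 was called higher, Mrpl3 at 0.23 ± 0.12, and 9 lower, led by Mrps27 at -0.37 ± 0.058 and Mrps25 at -0.35 ± 0.22, and their median was -0.07. Against the backgrounds of 10.4% and 10.1%, the shares among them were 1.35% higher and 12.2% lower.

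Markers of other cells also differed, against backgrounds of 10.4% of all genes called higher and 10.1% called lower. Of 8 genes of dividing cells, 6 were called higher. Their median was -0.03 for arrays 1 and 2 and 0.95 for the other pair. That pair difference was opposite in sign to the median of the ribosomal protein probes. The median pair difference was also below 0 for red-cell precursors, at -0.42. It was above 0, as for the ribosomal protein probes, for macrophage and dendritic-cell genes at 0.80, lymphocyte genes at 0.53 and kidney genes at 0.11. The summed log2 signal of the dividing-cell genes was 12.5 to 12.8 in Th3 and 11.7 to 12.6 in control. Within arrays, it was lower in Th3 on array 1, at 12.51 against 12.59, and higher on the others. Of 7 genes of red-cell precursors, 5 were called higher, with a summed log2 signal of 12.1 to 12.6 in Th3 and 11.7 to 12.5 in control. Within every array, that sum was higher in Th3. The sum weighs bright genes most, and the brightest, Slc4a1 and Alas2, were the ones not called (adjusted p = 0.062 and 0.12, limma). Of 8 macrophage and dendritic-cell genes, 7 were called lower, and the summed log2 signal was 12.6 to 12.9 in Th3 and 13.3 to 14.1 in control. Of 6 lymphocyte genes, 3 were called lower, with 10.2 to 10.6 in Th3 and 10.5 to 11.1 in control, and the sum was lower in Th3 within every array. Of 8 kidney genes, 1 was called lower. The part of these cells in the ribosomal protein ratios was not tested.

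Sequence around the start of these genes was taken from RefSeq promoters on GRCm38.p6, where 59 of the 80 genes had an entry. The stretches shown are 30 bases before to 20 bases after the start, and the capitals mark CTTTC, which lies within pyrimidine runs at the start of many ribosomal protein messages and is not in the Rps7 stretch.
Rplp2, chr7:141447621-141447670, plus strand: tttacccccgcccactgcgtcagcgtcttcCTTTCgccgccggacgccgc
Rps15a, chr7:118116128-118116177, minus strand: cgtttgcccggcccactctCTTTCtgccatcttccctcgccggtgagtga
Rpl27a, chr7:109519165-109519214, plus strand: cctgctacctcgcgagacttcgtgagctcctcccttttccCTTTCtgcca
Rps7, chr12:28635934-28635983, minus strand: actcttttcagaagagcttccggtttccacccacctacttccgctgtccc

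CTTTC lay in this window, on the strand of the gene, in 18 of the 59 genes (30.5%), against 2161 of 27025 genes in the table. On the opposite strand it lay in 6.78% of the members, against 6.96% of all genes. CTTCC, a similar run that can overlap CTTTC as it does in Rplp2, lay on the strand of the gene in 27.1% of the members, against 12.7% of all genes. On the opposite strand CTTCC lay in 25.4% of the members, against 13.7% of all genes. Among members called higher, 6 of 29 held CTTTC on the strand of the gene, and among the others 12 of 30 did. CTTCC ran the other way, in 12 of 29 members called higher and 4 of 30 others, and neither split was tested. The window and both motifs were chosen with results known, and a match describes letters only.

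The authors' deposited table gave an adjusted p for 133 member probes. It called 9 higher at 0.05 (6.77%, against 4.10% of all probes in that table) and 2 lower (1.504%, against 3.87%). The main fit called 44.6% of the kept member probes higher, against 9.30% of all kept probes, and 2.31% lower, against 8.93%. The excess of higher calls among members was thus much smaller in the authors' test. The authors' deposited table lists Rps15a at a signed fold of 1.39, Rps7 at 1.40, Rpl27a at -1.28 and Rplp1 at 1.06.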

How the data were processed

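Total RNA was amplified from an oligo-dT primer and labelled, per the labels' protocols. The deposited scanner files hold intensity values of spots and local background from Agilent Feature Extraction 9.5.3.1, and a log10 ratio per the file headers, which was not used in a test. A combined table that the authors deposited holds a log2 ratio per array, with a normalization that neither labels nor headers state; its ratios of all 4 arrays correlated above 0 with the ratios turned to Th3 over control, so arrays 3 and 4 were already turned. It also holds a signed fold, a score by the authors, and an adjusted p-value from a test by the authors that is not named.

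Mean signals were corrected with normexp (offset 50) and normalized within arrays by loess (span 0.3, 4 iterations), where control spots and outliers had weight 0, at most 186 outliers on an array (R 4.3.3, limma 3.58.1). The 43379 spots gave 41174 probes. A probe was kept if well above background in 1 sample type on all 4 arrays, with a value on at least 3. Log2 ratios were fitted with lmFit and eBayes on a Th3 term and a dye term, with 2 residual degrees of freedom, and adjusted p-values were taken over all kept probes. A ± is the SD over 4 arrays. The fit was tested on simulated data.

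Named genes were the stalk proteins, up to 8 called increases and 8 decreases, the 5 highest and 5 lowest pair differences, paralogs, 3 brightest and 3 dimmest, and up to 2 from each other list. Members and lists were chosen with earlier results of these data known. All arrays share 1 slide. Some genes are not reported here.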

Additional observations from a re-analysis of the deposited data

Results flagged for a closer look

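The Rplp0 ratio of 0.73 on array 3 stood apart from its other 3 arrays, at 0.17 to 0.23. Among 47 sets of 4 values looked at, 1 stood apart by this measure, and chance sets apart about 1 in 20.

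The pair difference of Rplp1, 1.13, was the only member called by the dye term, and its ratios were above 0 on arrays 1 and 2 and below 0 on arrays 3 and 4.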

How the results depend on the processing

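Higher calls among members numbered 58, and 35 with Agilent's processed signals, 32 without the dye term, 14 with the pairs as a random block, and 13 to 57 with an array left out; with members holding a low-gain value left out of the count, an alternative chosen after seeing the data, 13 of 48 remained. Of the 58, 34, 32 and 14 were called higher under the first 3. Lower calls numbered 3, and 1 to 3 with an array left out. The calls for the pair difference, 1 in all, were 0 with processed signals, 0 without the filter, 0 without members holding a low-gain value, 3 with the brightest probe per gene (0.884% of all genes), 3 when variances were robust and followed intensity (0.822% of all probes), 14 with separate channels (1.95%), 2 with the authors' ratios (0.621%), 0 to 2 with an array left out, and 119 with median centring (65.6% of all probes), where the median pair difference was 1.37 over members and 0.61 over all probes. Centring also turned the pair differences of Rplp0 to 0.81, Rps21 to 1.07, Rpl22l1 to 0.86, Rps9 to 0.99 and Rpl4 to 0.78. With an array left out, the pair difference ran from -0.53 to 0.011 for Rplp0 and from -0.49 to 0.0046 for Rps9 (both highest without array 3). The ratio ran from -0.030 (without array 3) to 0.11 for Rpl3l, from -0.0062 (without array 4) to 0.093 for Rps27l, from -0.12 to 0.0066 (without array 2) for Rpl31, and from -0.013 (without array 1) to 0.11 for Rpl14. The cause was not tested. The number of arrays, 4, limits the precision.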
